A study of Homo sapiens with 20 samples.

Results

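The chromatin loops at the start sites of 10 genes that control the G1/S transition and the p53 response in glioblastoma (GBM) were examined in isogenic pairs of GBM cells. The genes were the cyclins CCND1 and CCND2, the kinases CDK4 and CDK6, the inhibitors CDKN1A, CDKN2A and CDKN2B, the retinoblastoma gene RB1, and the p53 regulators MDM2 and MDM4. A loop here is a pair of anchors, which are pieces of the genome of about 5 kb, that lay close together in the nucleus. A loop belonged to a gene when either anchor lay within 3 kb of an annotated transcript start of that gene in hg19. By this rule 354 of the 572000 anchor pairs listed in any line belonged to the 10 genes, and no pair belonged to more than 1 of them. These pairs numbered 162 of 300000 in H4 and 276 in H4 88-1, and 145 in 42MGBA and 142 in 42MGBA 53-1.

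The study describes the parental lines H4 and 42MGBA as human GBM cell lines that carry truncating STAG2 mutations. STAG2 is a subunit of cohesin, the ring complex that forms chromatin loops. Gene editing of the mutation gave the STAG2-corrected derivatives H4 88-1 (from H4) and 42MGBA 53-1 (from 42MGBA), so that each genotype in each system rests on a single line. Hi-C, which counts ligation junctions between neighbouring pieces of chromatin, was performed on 2 biological replicates of each line. The authors pooled the replicates into 1 list per line, so that no spread between replicates can be given, no test was possible, and every difference below describes these 4 lists. The value of a pair is its loop strength, a bias-corrected and denoised signal without read counts, and the sequencing depth behind a single value is unknown. Strengths were listed down to 4.14 in H4 and 4.44 in H4 88-1, and down to 4.49 in 42MGBA and 4.28 in 42MGBA 53-1, so that a pair missing from a list is weaker than that bound and is not shown to be absent. A strength averages over all cells, so that contact in fewer cells and weaker contact in every cell cannot be told apart.

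D-type cyclins activate CDK4 and CDK6, which phosphorylate the RB1 protein and thereby release E2F transcription factors to start DNA replication. The products of CDKN2A and CDKN2B block these kinases, CDKN1A is a p53 target that blocks cyclin-dependent kinases more broadly, and MDM2 and MDM4 restrain p53. In GBM these pathways are commonly altered by gain of CDK4, CDK6, MDM2 or MDM4 or by loss of CDKN2A, CDKN2B or RB1. Background of this kind says nothing about copy number or expression in the cells studied here, and expression was not analysed.

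Loops were very unevenly spread over the 10 genes. CCND1 had 144 listed pairs over the 4 lines, CDK6 had 106 and CCND2 had 70, and these 3 genes together held most of the 354. MDM4 had 12 pairs, RB1 had 10, CDKN1A had 6, MDM2 had 5 and CDK4 had 1, whereas CDKN2A and CDKN2B had 0. For comparison, 50.2% of 20136 protein-coding genes had no pair in any list, and only 1.73% had more pairs than CCND1 and 3.09% more than CDK6.

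**Figure D1:**
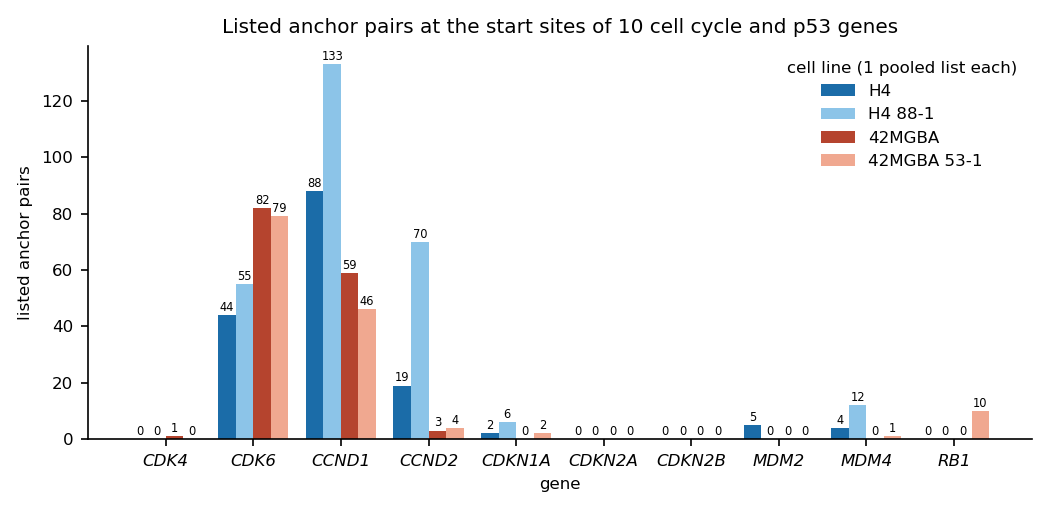
Bars give the number of listed anchor pairs (y axis) with an anchor within 3 kb of a start site of each gene (x axis) in each of the 4 cell lines, 1 pooled list per line with no error bar. CCND1 and CCND2 have their highest bars in H4 88-1 (133 and 70), CDK6 has its highest in 42MGBA (82), and CDKN2A and CDKN2B are at 0 in every line.

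CCND1 encodes cyclin D1 and lies at chr11:69455924-69469242 on the plus strand. Its listed pairs numbered 88 in H4 and 133 in H4 88-1, and 59 in 42MGBA and 46 in 42MGBA 53-1. Of the 4 lists, 54 pairs appeared in that of H4 88-1 alone and 9 in that of H4 alone. The share of all pairs that appeared in 1 list alone was not counted. Of the CCND1 pairs of H4 88-1 57.9% were also listed in H4, against 71.1% of all pairs of H4 88-1. Of those of H4 87.5% were also listed in H4 88-1, against 71.1% of all pairs of H4. Every CCND1 pair listed in a 42MGBA line was also listed in the H4 line of the same genotype. These were 59 of 59 in the STAG2-mutant lines and 46 of 46 in the STAG2-corrected lines. Of all pairs of 42MGBA 52.8% were also listed in H4, and of all pairs of 42MGBA 53-1 50.03% were also listed in H4 88-1.

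The 144 pairs fell into 7 contact groups when pairs with both anchors within 10 kb of each other were joined, and most lay in 2 of the groups. The group of 67 pairs reached 513 to 605 kb upstream of the CCND1 5′ end, into and around TPCN2, which encodes a two-pore channel of endosomes and lysosomes. It was listed in all lines, with 66 pairs in H4 and 61 in H4 88-1, and 50 in 42MGBA and 37 in 42MGBA 53-1. The strongest CCND1 pair by its mean over the 4 lists, the measure used for each gene below, joined the promoter anchor chr11:69455118-69460019 to chr11:68872247-68877198 inside TPCN2. This pair stood at 11.8 in H4 and at 12.3 in H4 88-1, and at 10.5 in 42MGBA and 7.66 in 42MGBA 53-1. The H4 lines differed by 1.05-fold at this pair, whereas it was 1.37-fold higher in 42MGBA than in 42MGBA 53-1.

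The other large group, of 55 pairs, reached 265 to 418 kb upstream and included the start of MYEOV, a gene named for its overexpression in myeloma. All 55 of its pairs were listed in H4 88-1, against 17 in H4, 9 in 42MGBA and 8 in 42MGBA 53-1. The highest value in the group was 8.17 in H4 and 12.7 in H4 88-1, and 6.02 in 42MGBA and 4.97 in 42MGBA 53-1, so that H4 88-1 stood above the other 3 lines. The pair with the largest difference in the H4 isogenic pair joined chr11:69450175-69455117, just upstream of the promoter, to chr11:69059156-69063917 at MYEOV. Its strength was 6.36 in H4, 12.2 in H4 88-1 and 5.68 in 42MGBA, and it was not listed in 42MGBA 53-1. This is a 1.92-fold higher strength in H4 88-1 than in H4.

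Of the smaller CCND1 groups, 5 pairs at 452 to 461 kb upstream were listed in H4 alone, none above 4.30. Contacts at 216 to 221 kb (2 pairs), 134 to 139 kb (2 pairs) and across the CCND1 gene toward LTO1 (4 pairs) were listed in H4 88-1 alone, at up to 4.64, 4.98 and 5.19. A group of 9 pairs at 178 to 197 kb was listed in full in H4 88-1, and 1 of its pairs was listed in 42MGBA 53-1.

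The promoter of CCND1 is shown because it lies in the anchor of the strongest pair, and the E2F factors that RB1 restrains bind letters such as those searched. The window holds the 200 bases before the start site, chr11:69455724-69455923 (hg19, plus strand). Capitals mark matches on either strand to the E2F letters TTTCGCGC or TTTGGCGC and to the GC box GGGCGG, which do not overlap each other here.
CCND1 promoter: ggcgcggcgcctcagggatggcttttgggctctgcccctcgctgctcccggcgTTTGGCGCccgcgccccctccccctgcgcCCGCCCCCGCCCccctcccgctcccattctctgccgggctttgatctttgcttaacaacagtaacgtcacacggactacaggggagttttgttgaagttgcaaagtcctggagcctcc
It held 1 E2F match and 2 GC boxes. Over 19867 protein-coding promoters of the same length, 1.08% held an E2F match and 56.5% held a GC box, so that the GC box is common.

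CCND2 encodes cyclin D2 and lies at chr12:4378937-4414519 on the plus strand. Its listed pairs numbered 19 in H4 and 70 in H4 88-1, and 3 in 42MGBA and 4 in 42MGBA 53-1. All 19 pairs of H4 were also listed in H4 88-1, against 71.1% of all pairs of H4. All 19 were stronger there, by a median of 1.44-fold, against 1.06-fold over all pairs listed in both lines. A further 51 pairs were listed in H4 88-1 alone. Of the CCND2 pairs of H4 88-1 27.1% were also listed in H4, against 71.1% of all pairs of H4 88-1.

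The CCND2 pairs ran upstream as well. A group of 30 pairs reached 356 to 400 kb upstream, over PARP11-AS1 and the start of PARP11, a mono-ADP-ribosyltransferase gene. It held every CCND2 pair of H4, 42MGBA and 42MGBA 53-1. Its strongest pair joined chr12:4384749-4389658, near internal starts of CCND2, to chr12:3990955-3995958, at 6.92 in H4 and 11.0 in H4 88-1, and 5.34 in 42MGBA and 5.17 in 42MGBA 53-1. H4 88-1 was 1.59-fold above H4, while the 42MGBA lines differed by 1.03-fold. A second group of 39 pairs at 220 to 313 kb upstream was listed in H4 88-1 alone, at up to 7.64.

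**Figure D2:**
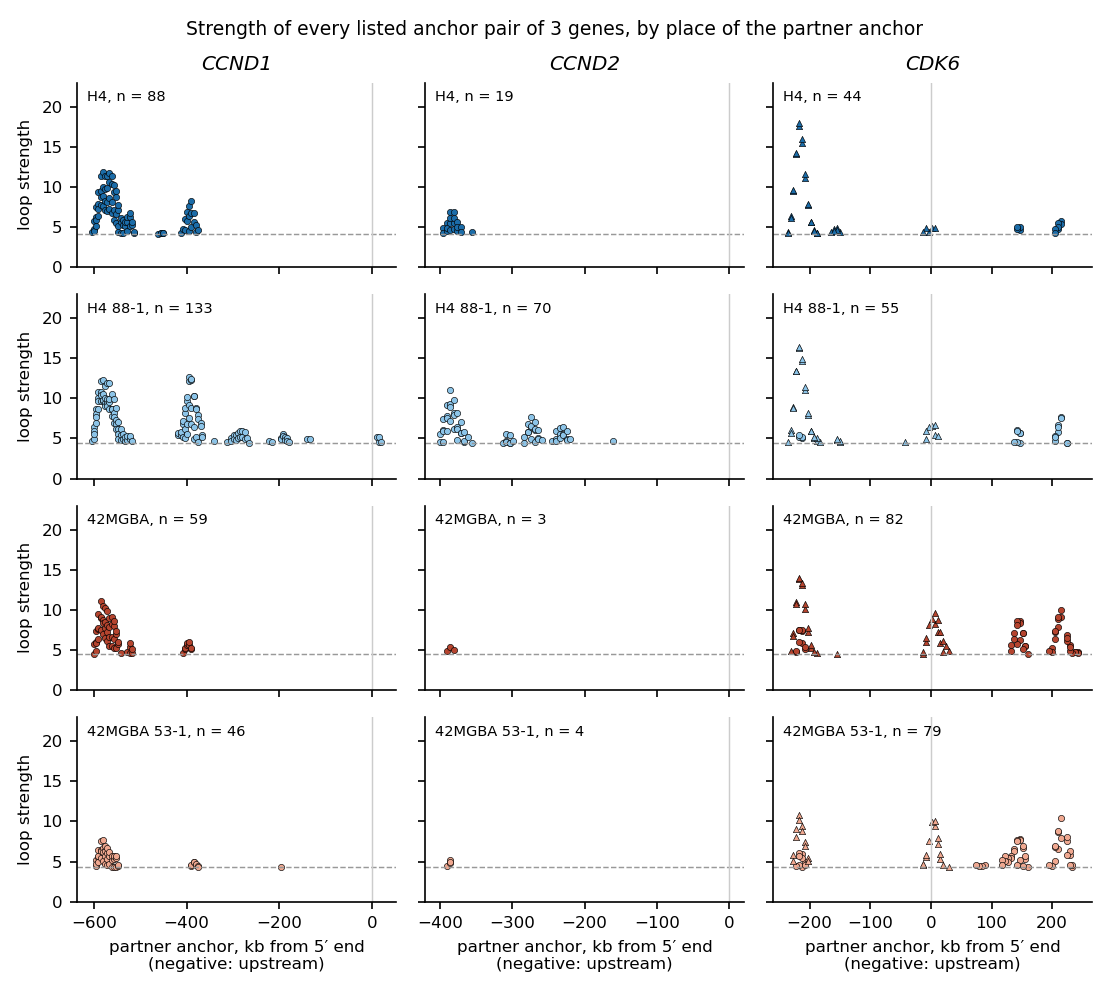
Each point is a listed anchor pair of CCND1, CCND2 or CDK6 (columns) in each line (rows), with its loop strength on the y axis and the place of its partner anchor in kb from the 5′ end on the x axis. Dashed lines mark the lowest listed strength, and for CDK6 circles are pairs from the promoter and triangles pairs from the internal start near its 3′ end. The CCND1 contacts near 390 kb and the CCND2 contacts near 385 kb upstream stand highest in H4 88-1, and the CDK6 promoter contacts stand higher in both 42MGBA lines.

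CDK6 encodes the kinase partner of the D cyclins and lies at chr7:92234235-92465887 on the minus strand. Its listed pairs numbered 44 in H4 and 55 in H4 88-1, and 82 in 42MGBA and 79 in 42MGBA 53-1. The order of the systems was thus the opposite of that of CCND1 and CCND2, with more pairs in both 42MGBA lines, whereas H4 88-1 again had more pairs than H4. The pairs fell into 7 contact groups, and 3 of them linked 3 places: the promoter, the 3′ end of the gene, where an internal start of a retained-intron transcript lies 218 kb from the 5′ end, and an intergenic region about 218 kb upstream of the promoter.

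The contact between the 3′ end and the upstream region, of 23 pairs, was the strongest of any member. Its strongest pair over the 4 lists joined chr7:92243896-92248579 to chr7:92681336-92686213 over 438 kb, at 17.6 in H4 and 16.3 in H4 88-1, and 13.9 in 42MGBA and 10.9 in 42MGBA 53-1. The neighbouring pair, from chr7:92248580-92253586 to the same partner, had the largest z-score of CDK6 in the H4 pair and between systems, at 18.0 in H4, place 573 of its list, and at 16.4 in H4 88-1, with 13.9 in 42MGBA and 10.1 in 42MGBA 53-1. At the first of these pairs the STAG2-mutant line was the higher in both systems, by 1.08-fold for H4 and 1.28-fold for 42MGBA.

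The promoter contacts showed the opposite order of the systems. The group that spans the gene from promoter to 3′ end had 12 pairs in H4 and 17 in H4 88-1, and 38 in 42MGBA and 32 in 42MGBA 53-1, with strongest values of 5.76, 7.62, 10.0 and 10.4. The group between promoter and upstream region was not listed in H4, had 4 pairs in H4 88-1, 10 in 42MGBA and 9 in 42MGBA 53-1, and reached 7.53 in 42MGBA. A further group from the promoter to 117 to 160 kb inside the gene had 4, 7, 16 and 22 pairs in the same order of lines. These 3 promoter groups held more pairs in either 42MGBA line than in either H4 line. Another promoter group, to 75 to 88 kb inside the gene, had 4 pairs in 42MGBA 53-1, none above 4.63, and none in the other lines.

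CDK4, at chr12:58141510-58149796, encodes the other D-cyclin kinase. It had 1 listed pair, in 42MGBA, of strength 4.64, just above the lowest listed value of 4.49. The pair reached 145 kb upstream to the start of ATP23, and it is the only CDK4 pair in any list. Within 500 kb of the CDK4 5′ end 168, 138, 129 and 138 pairs were listed in the lines in the order given above, so that the lists were not empty around it.

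CDKN1A encodes p21, the kinase inhibitor that p53 induces, and lies at chr6:36644237-36655114. It had 2 listed pairs in H4 and 6 in H4 88-1, and 0 in 42MGBA and 2 in 42MGBA 53-1, all 45 to 60 kb upstream. The strongest joined chr6:36644990-36649931 to chr6:36586720-36591506, which overlaps the microRNA gene MIR3925, at 4.62 in H4, 6.49 in H4 88-1 and 4.45 in 42MGBA 53-1. Both pairs listed in H4 were higher in H4 88-1, by a median of 1.47-fold. The larger difference was at chr6:36591507-36596503, with 4.16 in H4, 6.36 in H4 88-1 and 4.36 in 42MGBA 53-1.

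RB1, at chr13:48877880-49173572, had 10 listed pairs in 42MGBA 53-1 and 0 in each of the other lines. Their strengths lay between 4.33 and 5.06, close to the lowest listed value of 4.28. Of all pairs of 42MGBA 53-1 68.0% were also listed in 42MGBA. Of the 10 pairs, 9 joined starts of RB1 to anchors 272 to 281 kb inside the gene, near its 3′ end. Within 500 kb of the RB1 5′ end the listed pairs numbered 34 in H4 and 23 in H4 88-1, and 19 in 42MGBA and 78 in 42MGBA 53-1, so that 42MGBA 53-1 had more listed pairs around RB1 as well.

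CDKN2A, which encodes p16 and p14ARF, and CDKN2B, which encodes p15, are neighbours at chr9:21967751-21995300 and chr9:22002902-22009304. No pair of either gene was listed in any line. Within 500 kb of the CDKN2A 5′ end there were 0 pairs in H4 and in H4 88-1, 17 in 42MGBA and 15 in 42MGBA 53-1. The nearest listed anchor in the direction of transcription lay 1058 kb away in H4, 2961 kb in H4 88-1 and 348 kb in both 42MGBA lines. On the other side it lay 3965, 3960, 3946 and 3950 kb away in the 4 lines.

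The genes thus lay in a stretch without listed anchors of 5023 kb in H4, 6921 kb in H4 88-1, 4293 kb in 42MGBA and 4298 kb in 42MGBA 53-1. Stretches at least as long held 4.15%, 2.56%, 5.53% and 7.25% of the protein-coding genes in these lists. A missing pair says only that no contact was among the 300000 strongest, and whether the lines carry the locus was not examined.

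**Figure D3:**
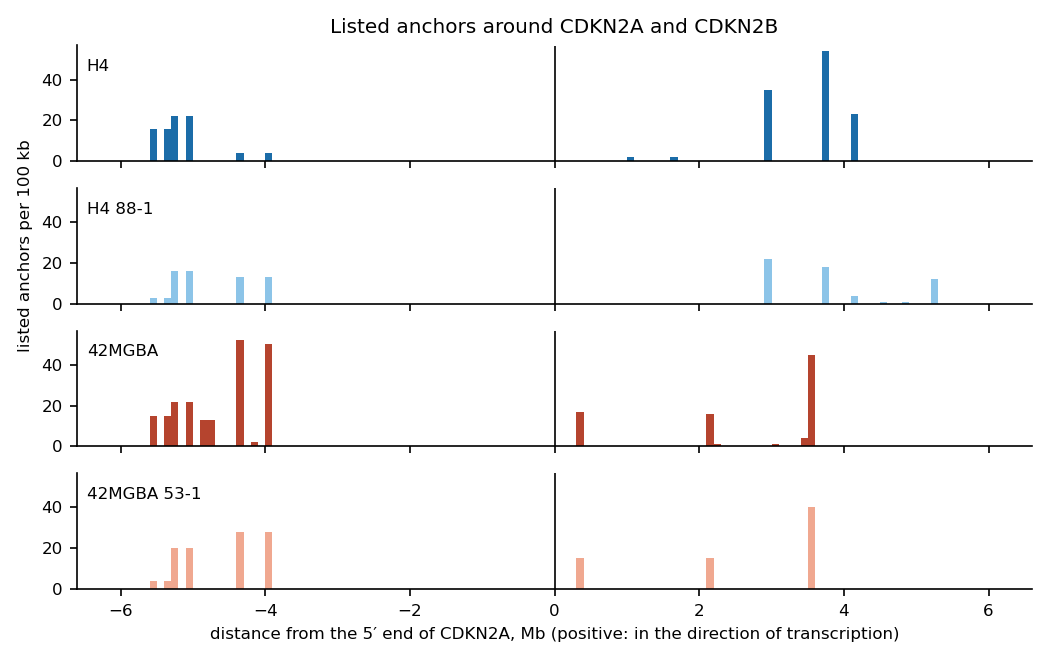
Bars give the number of listed anchors per 100 kb (y axis, each pair counted at both anchors) against the distance from the CDKN2A 5′ end in Mb (x axis), 1 panel per cell line. No listed anchor lies within 1058 kb of the start in the H4 lines, whereas both 42MGBA lines have anchors from 348 kb in the direction of transcription.

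MDM2, at chr12:69201957-69239324, encodes the ubiquitin ligase that degrades p53. It had 5 listed pairs, all in H4, with strengths from 4.19 to 4.61 against a lowest listed value of 4.14. They reached 445 to 473 kb upstream into LINC02384, and 1 of them reached the start of MDM1. With all values so near the bound, the other lines are not shown to differ from H4 at MDM2.

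MDM4, at chr1:204485507-204527248, encodes a p53 inhibitor related to MDM2. It had 4 listed pairs in H4 and 12 in H4 88-1, and 0 in 42MGBA and 1 in 42MGBA 53-1. All of them ran from internal starts, none from the 5′ end, to anchors 277 to 296 kb downstream of the 5′ end, where no gene is annotated. The strongest joined chr1:204511698-204516711 to chr1:204774272-204778914, at 5.12 in H4, 7.48 in H4 88-1 and 4.31 in 42MGBA 53-1. H4 88-1 was again the highest, 1.46-fold above H4.

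The core letters of the CTCF motif were searched in the anchors of the named loops, because CTCF stops cohesin at sites whose motifs face each other across a loop. The core searched was CCANNAGNNGGC on both strands, where N is any base. It was present in 16.1% of the 128561 listed anchors and in 37 of the 177 anchors of member pairs (20.9%). The matches in the strongest pairs are shown with 9 bases on each side, 5′ to 3′ on the strand of the motif, which is the minus strand in each case, with the core in capitals.
CCND1 start anchor, chr11:69459151-69459180: tgggagaggCCAGGAGGGGGCctctgcagc
CCND2 start anchor, chr12:4386272-4386301: gcatgtcttCCACTAGATGGCagcagagcc
CDK6 start anchor, chr7:92245336-92245365: gctaggcacCCAGCAGGAGGCgttgatgga
CDK6 partner anchor, chr7:92685116-92685145: acatagaatCCATTAGATGGCagtgttact
MDM4 partner anchor, chr1:204776240-204776269: cagaagctgCCATTAGGGGGCagcagaaca
MDM4 partner anchor, chr1:204776550-204776579: ggaattctcCCAGCAGGGGGCtggcagtgc
The CCND1, CCND2 and first CDK6 matches are intronic, and those in the partner anchors of CDK6 and MDM4 are intergenic. At CCND1, CCND2 and MDM4 the minus-strand match lies in the right-hand anchor of the pair and so faces the other anchor. At CDK6 the match in the right-hand partner anchor faces the start anchor, but that in the left-hand start anchor faces away. Of the 106 CDK6 pairs 0 held cores that face each other. In the strongest pairs no core was found in the partner anchors of CCND1 and CCND2 or in the start anchor of MDM4. Those of CDK4, CDKN1A, MDM2 and RB1 held none in either anchor. Another named CCND1 pair, to chr11:68891615-68896572, held a plus-strand core in its partner anchor, at chr11:68895002-68895031 in an exon of TPCN2. This core and the minus-strand core of the CCND1 start anchor face each other. A plus-strand core on the left and a minus-strand core on the right were present together in 16 of the 354 member pairs (4.52%), of which CCND1 had 10, CCND2 had 5 and MDM4 had 1. The shares were 1.51% of all listed pairs and 1.81% of pairs at protein-coding starts. The opposite arrangement, with the cores facing away from each other, was present in 8 member pairs (2.26%), against 0.654% of all listed pairs and 0.796% at protein-coding starts. A core in both anchors in any orientation was present in 37 (10.5%), against 3.67% and 4.37%. The higher share among member pairs was thus not limited to cores that face each other. The 354 pairs share 177 anchors, so that a core in 1 anchor is counted in several pairs, and the pairs are not independent cases.

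To compare the lines of each isogenic pair, the 100000 strongest loops of both lines were merged, a line through the origin was fitted to predict the STAG2-corrected from the STAG2-mutant strength, and the residual was expressed as a z-score. A loop was called gained or lost after STAG2 correction when its z-score passed 1.96 in either direction, and a loop missing from a list took the lowest strength of that list. With 1 value per line this cutoff marks loops far from the line of all loops and is not a test between replicates.

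In the H4 pair 121 of 129476 merged loops belonged to the members, 72 of CCND1, 23 of CCND2, 21 of CDK6, 3 of MDM4 and 2 of CDKN1A. Of these 12 were called gained (9.92%, against 1.94% of all merged loops) and 0 lost (against 2.17%). CCND1 had 10 of the gained loops and CCND2 had 2. All 10 CCND1 loops lay in the MYEOV group, 375 to 399 kb upstream, and their strengths ran from 7.88 to 12.7 in H4 88-1, whereas in H4 they ran up to 8.17 and 1 was not listed. The CCND2 loops, both to the anchor 385 kb upstream, had strengths of 5.48 and 6.92 in H4 and of 9.32 and 11.0 in H4 88-1. The 12 loops share anchors and joined into 2 groups of neighbours, so that they are not 12 independent events.

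The gained loops were the upper end of a wider difference. All 25 merged loops of the MYEOV group had positive z-scores, from 1.04 to 3.24, while the 47 merged loops of the TPCN2 group had a median log2 ratio (H4 88-1 over H4) of 0.09 and z-scores from -1.25 to 1.81. All 23 merged loops of CCND2 were higher in H4 88-1, with a median log2 ratio of 0.61. Of the merged loops, 9 of CCND1, 7 of CCND2 and 1 of MDM4 were not listed in H4 and took its lowest strength, so that their ratios are lower bounds. These loops were merged only through their strength in H4 88-1, which favours a positive ratio. The comparison of the STAG2-mutant lines takes in every loop merged through H4. It held only 7 loops of the MYEOV group and 4 of CCND2. Most of the 25 and of the 23 were thus also merged only through H4 88-1. That all of them were higher in H4 88-1 is in part set by the merging. The median log2 ratio over the 121 member loops was 0.39, against 0.07 over all merged loops and 0.10 over those at protein-coding starts. The median of CDK6 was -0.02, which joins 7 loops across the gene, with a median of 0.43 and z-scores from 0.54 to 1.11, and 14 loops between its 3′ end and the upstream region, with a median of -0.08. Over all merged loops of their chromosomes the medians were 0.14 for chromosome 11, 0.13 for chromosome 12 and -0.11 for chromosome 7.

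The 3 merged loops of MDM4 had a median log2 ratio of 0.58 and the 2 of CDKN1A had 0.55, and none passed the cutoff. The number called gained depended on the settings: it was 6 when the start site had to lie inside the anchor, 22 when 200000 loops of each line were merged, and 2 without CCND1.

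**Figure D4:**
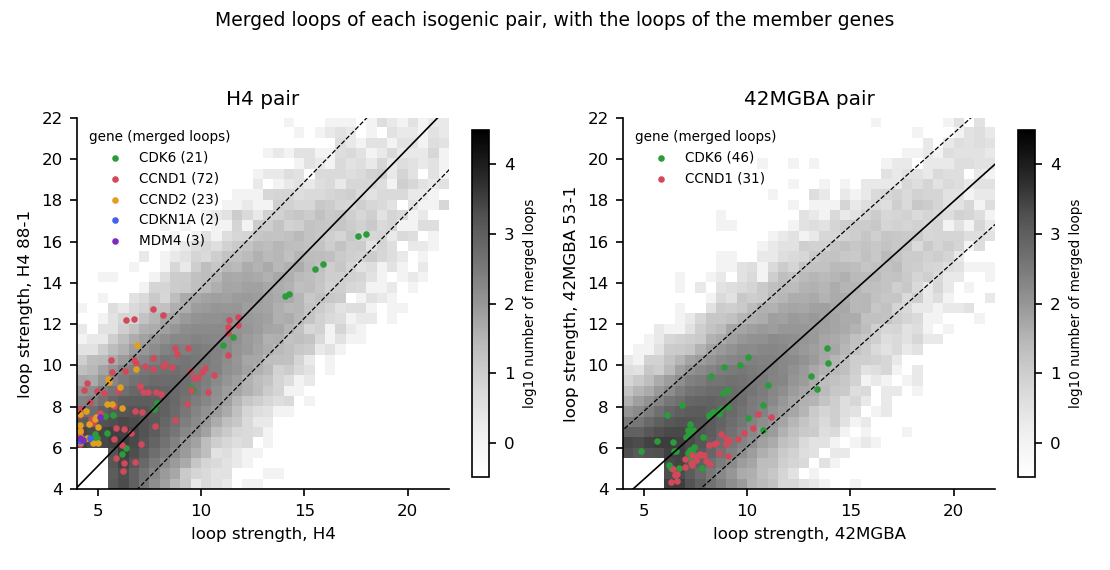
Loop strength in the STAG2-corrected line (y axis) against that in the STAG2-mutant line (x axis) for the merged loops of the H4 pair (left) and the 42MGBA pair (right), with all merged loops in grey on a log10 scale of number and member loops as coloured points. The solid line is the regression through the origin and the dashed lines the z-score cutoff. In the H4 pair 12 CCND1 and CCND2 points lie above the upper dashed line, while in the 42MGBA pair 1 CDK6 point lies below the lower one.

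In the 42MGBA pair 77 of 131211 merged loops belonged to the members, 46 of CDK6 and 31 of CCND1. None was called gained (against 1.61% of all merged loops) and 1 was called lost (1.30%, against 2.45%). The lost loop was a CDK6 pair between the 3′ end and the upstream region, at 13.4 in 42MGBA and 8.86 in 42MGBA 53-1, a 1.51-fold lower strength after correction. In the H4 lines the same pair stood at 15.9 in H4 and 14.9 in H4 88-1. The call rested on the settings, since it was not made with an intercept, on the log2 scale or with each chromosome centred.

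All 31 merged CCND1 loops, all in the TPCN2 group, were lower in 42MGBA 53-1, with a median log2 ratio (42MGBA 53-1 over 42MGBA) of -0.47 and z-scores from -1.71 to -0.62. The loop farthest from the line joined the promoter anchor to chr11:68891615-68896572 inside TPCN2, at 9.09 in 42MGBA and 5.64 in 42MGBA 53-1, a 1.61-fold lower strength, while it stood at 11.3 in H4 and 10.5 in H4 88-1. The median over all merged loops of chromosome 11 was close to this, at -0.43, and 8.81% of the loops of that chromosome were called lost, with a difference of -0.038 between CCND1 and its chromosome. The part of the chromosome in the CCND1 values was not tested. CDK6 had a median of -0.15, against -0.05 for chromosome 7. Over all 77 member loops the median was -0.39, against -0.11 over all merged loops and -0.09 at protein-coding starts, and it came to -0.074 when each chromosome was centred on its own median.

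No member loop was called in both isogenic pairs. Of the member pairs, 68 were listed in all 4 lines, 39 of CCND1, 27 of CDK6 and 2 of CCND2. Among these 43 were higher in H4 88-1 than in H4 and lower in 42MGBA 53-1 than in 42MGBA (63.2%), which was also the most common pattern among the 110313 pairs listed in all 4 lines (42.4%). A further 22 were lower in both corrected lines (32.4%, against 25.2% of all such pairs), 12 of CCND1 and 10 of CDK6. Only 3, all of CDK6, were higher in both (4.41%, against 22.4%).

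The systems were compared in the same way, with the strength in the 42MGBA line regressed on that in the H4 line of the same genotype. In the STAG2-mutant lines 100 of 149005 merged loops belonged to the members, and none was called stronger in 42MGBA (against 2.11% of all merged loops) or in H4 (against 1.93%). Their median log2 ratio, 42MGBA over H4, was -0.14, but this joins genes that differ. CDK6 had a median of 0.72 over 45 loops although chromosome 7 had a median of -0.42, while CCND1 had -0.20 over 51 loops and CCND2 -0.44 over 4. Of the 45 CDK6 loops 16 were not listed in H4 and took its lowest strength. Only 21 CDK6 loops were merged in the H4 pair. Most of the 45 were thus merged only through 42MGBA, which favours a positive ratio. The best place of CCND2 in 42MGBA was 170085, so that its loops were merged only through H4, which favours a negative ratio. The same holds for the 7 merged CCND1 loops of the MYEOV group, whose best place in 42MGBA was 112942. The largest z-score of CCND1 was at chr11:69063918-69068839 at MYEOV, with 8.17 in H4 and 5.29 in 42MGBA (z-score -1.21). That of CCND2 was at chr12:3995959-4000833, with 6.87 in H4 and 5.05 in 42MGBA (z-score -0.83). With each chromosome centred, 28 of the 100 member loops were called stronger in 42MGBA, a count without the share of all merged loops under that setting. The gene medians less those of their chromosomes were 1.14 for CDK6, -0.38 for CCND1 and -0.25 for CCND2. Neighbouring loops share anchors, so that the 28 are not independent events.

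The CDK6 loops themselves split by contact. The 18 merged loops across the gene had a median log2 ratio of 0.80 and z-scores from 0.41 to 1.59, whereas the 14 between its 3′ end and the upstream region had a median of -0.35 and z-scores from -1.59 to -0.18. Only 7 loops across the gene were merged in the H4 pair. Most of the 18 were thus merged only through 42MGBA, which favours a positive ratio.

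In the STAG2-corrected lines 137 of 151046 merged loops belonged to the members. None was called stronger in 42MGBA 53-1 (against 1.92% of all merged loops) and 5 were called stronger in H4 88-1 (3.65%, against 2.09%). All 5 were CCND1 loops of the MYEOV group, with strengths of 10.1 to 12.7 in H4 88-1, and in 42MGBA 53-1 2 of them were listed, at 4.45 and 4.56. They were 5 of 67 merged CCND1 loops, while 8.96% of all merged loops of chromosome 11 were called stronger in H4 88-1. The calls at CCND1 are thus not shown to exceed those of its chromosome. The largest z-score, -2.91, was that of the pair from the promoter anchor to chr11:69059156-69063917, at 12.7 in H4 88-1 and not listed in 42MGBA 53-1. Of these 5, 4 were among the loops called gained in the H4 pair, with which this comparison shares the list of H4 88-1. The count became 0 with an intercept in the regression and 30 when 200000 loops of each line were merged.

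All merged loops of CCND1 (67), CCND2 (23), CDKN1A (2) and MDM4 (3) were higher in H4 88-1 than in 42MGBA 53-1, with median log2 ratios, 42MGBA 53-1 over H4 88-1, of -0.78, -0.80, -0.55 and -0.60. The best places of CCND2, CDKN1A and MDM4 in 42MGBA 53-1 were 153670, 262118 and 291829, outside the 100000 strongest. Their loops were thus merged only through H4 88-1, which favours this direction, so that it says little about these 3 genes. The 25 merged CCND1 loops of the MYEOV group, at most 4.97 in 42MGBA 53-1, were also merged only through H4 88-1. They include every CCND1 loop called between these lines. Of the 67 CCND1 loops 22 were not listed in 42MGBA 53-1. Among the 137 member loops 43 were not listed in 42MGBA 53-1 and 8 were not listed in H4 88-1, and these took the lowest strength of the list. The chromosome medians in the same order were -0.56, -0.46, -0.40 and 0.14. CDK6 again went the other way, with a median of 0.37 over 42 loops against -0.41 for chromosome 7. Most of its promoter loops were merged only through 42MGBA 53-1, which favours a positive ratio.

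**Figure D5:**
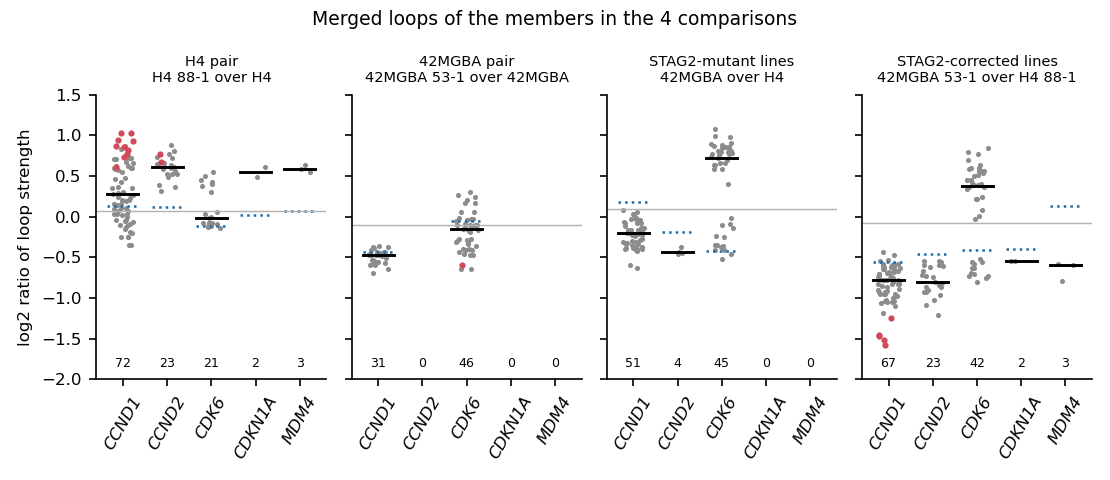
Each point is the log2 ratio of loop strength (y axis) of a merged loop of the gene on the x axis, in the 4 comparisons (panels), with called loops in red and the number of merged loops under each gene. Black bars are the medians of the gene, dotted blue bars the medians of all merged loops of its chromosome and grey lines the medians of all merged loops. CCND1 lies above 0 in the H4 pair (median 0.28) but below 0 in the 42MGBA pair (median -0.47), and CDK6 lies above its chromosome between systems.

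Other genes of these pathways were counted in the same way. Of 18 other cell cycle genes, 7 had merged loops in the H4 pair (143 loops), compared with 8 genes (79 loops) for the 42MGBA pair. None of the 143 was called in the H4 pair, against 1.94% gained and 2.17% lost over all merged loops. In the 42MGBA pair 1 loop of CDKN1B, the gene of the kinase inhibitor p27, was called gained (1.27%, against 1.61% of all merged loops). In that pair 1 loop of the cyclin gene CCNE2 was called lost (1.27%, against 2.45%), so that neither share lay above that of all merged loops. Over the merged loops of these 18 genes the median log2 ratio came to 0.17 for the H4 pair, compared with -0.11 for the 42MGBA pair. Between the STAG2-corrected lines 9 of their 129 merged loops were called stronger in H4 88-1 (6.98%), 6 of CDKN1C, the gene of the kinase inhibitor p57, and 3 of CDKN1B. This share lay above that of all merged loops (2.09%) and above that of the members (3.65%), so that a share of this size was not particular to the members.

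Of 15 other p53 pathway genes, 3 had merged loops in the H4 pair (15 loops), compared with 4 genes (32 loops) for the 42MGBA pair. None was called, against the shares of all merged loops given above, and the loops are too few to set against such shares. The medians were -0.02 for the H4 pair and 0.25 for the 42MGBA pair.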

How the data were processed

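Hi-C was performed by the study on 2 replicates of each of 4 cell lines with the Arima kit. According to its methods the authors aligned the reads to hg19 with bowtie, assigned them to anchor pairs of about 5 kb, and applied HiCorr and DeepLoop. Loop strength, the signal deposited by the authors, is given for the 300000 strongest anchor pairs of each line, with replicates pooled and without read counts. The 12 RNA-seq samples were not analysed here.

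Start sites came from GENCODE release 44 on GRCh37, the same build as hg19. Of 128561 listed anchors, 128559 began at a GANTC or GATC site of GRCh37, the cut sites of the kit. The regression was fitted on all merged loops and only member loops were counted. Members and gene lists were chosen with earlier results of these data known. By rule the text names, for each member, the pair strongest on average over the 4 lists, the merged loop with the largest z-score in each comparison and loops called in both isogenic pairs. Partner genes are protein-coding genes with a start within 3 kb of the other anchor of such a loop. Other genes at partner anchors (TPCN2, LTO1, PARP11, PARP11-AS1, MIR3925, LINC02384 and MDM1) were named after the values were seen. Of the other gene lists those with a called loop are named. Alternatives changed the start sites, the regression, the scale, the number of merged loops, absent loops, the cutoff and the joining of neighbours. The procedure was tested on simulated data. The software was matplotlib 3.10.9, scipy 1.17.1, pandas 2.3.3 and numpy 2.4.6 under Python 3.11.15.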

Additional observations from a re-analysis of the deposited data

Results flagged for a closer look

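Over all members the median log2 ratio of merged loops, STAG2-corrected over STAG2-mutant, came to 0.39 for the H4 pair, compared with -0.39 for the 42MGBA pair, a difference of 0.78. For CCND1 alone it was 0.28 and -0.47, a difference of 0.75. Both are listed here because the lines of the 2 systems moved in opposite directions under the same contrast. The difference was not tested, because each line is 1 pooled list. The merged CCND1 loops were not the same in both pairs, with 72 for the H4 pair, compared with 31 for the 42MGBA pair. Over the pairs listed in all 4 lines the medians lay closer together, at 0.15 and -0.42 for the 68 member pairs and at 0.11 and -0.46 for the 39 of CCND1, with the H4 pair first. Chromosome 11 as a whole had medians of 0.14 and -0.43.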

How the results depend on the processing

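No paired analysis was possible because the authors pooled the replicates of each line into 1 list. Under the alternatives 81 values stayed within 1.5 times the count or within the spread between chromosomes (SD of chromosome medians), 30 moved further and 1 changed sign.

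In the H4 pair 12 member loops were called gained. The count was 6 with the start site inside the anchor, 19 with the z-score among loops of similar size, 22 with 200000 loops merged, 4 at a cutoff of 0.01, 2 with neighbours joined and 2 without CCND1, and without CCND1 the median log2 ratio of 0.39 became 0.50. In the 42MGBA pair the 1 lost loop became 0 with the 5′ end alone, with the start site inside the anchor, with an intercept, on the log2 scale, by size, by chromosome, at 0.01 and without CDK6, 7 with 200000 loops merged and 2 without absent loops, and centring on the chromosome moved the median from -0.39 to -0.074.

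Between the STAG2-mutant lines, where 0 loops were called, centring on the chromosome gave 28 stronger in 42MGBA, and merging 200000 loops gave 2 in each direction. Without CCND1 the median changed sign, from -0.14 to 0.67. Between the STAG2-corrected lines 5 loops were called stronger in H4 88-1, against 3 with the start site inside the anchor, 0 with an intercept, 1 with chromosomes centred, 30 with 200000 loops merged, 1 with neighbours joined and 0 without CCND1. Stronger in 42MGBA 53-1 were 5 with chromosomes centred and 4 with 200000 merged, against 0, and the median of -0.69 moved to -0.19 with chromosomes centred. Apart from changes that follow from fewer genes, loops or a stricter cutoff, the cause was not tested. Replicate spread and read depth are unknown, which limits every value.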
